A study of Homo sapiens with 27 samples.

Results

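The genes of mitochondrial complex I, the subunits and the NDUFAF assembly factors, were followed through knockdown of SIRT5 in 3 human melanoma lines. They were taken by symbol, as every gene named NDUFA, NDUFB, NDUFC, NDUFS, NDUFV or NDUFAF with a number, together with NDUFAB1. This gave 46 of the 26004 genes measured, 38 named as subunits and 8 named as assembly factors. No measured value enters this rule, which was set with earlier results of these data known. Pseudogenes, antisense and divergent transcripts and NDUFA4L2 carry similar symbols and were left out.

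RNA was sequenced from A2058, A375 and SKMEL2 cells, established melanoma lines, in 27 libraries with paired reads of 50 nucleotides. In each line, 3 control libraries (NT) came from cells given a pLKO.1 lentivirus with a hairpin against Gaussia luciferase, which has no target in human cells. The arms KD1 and KD2, of 3 libraries each, came from cells given a hairpin against SIRT5, with a different hairpin in each arm. All cells, controls included, were under puromycin at 1 µg/ml and were lysed 96 h after transduction. The labels name the hairpins 546 and 547, and nothing ties these names to KD1 and KD2. Libraries of an arm came from separate wells, and nothing says that these were separate cultures, so the p-values rest on well-to-well spread, which may be technical. The sequencing of each line cannot be told apart from the line itself.

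Complex I takes electrons from NADH, passes them to ubiquinone and pumps protons across the inner mitochondrial membrane. Its peripheral arm holds the N module, where NADH is oxidised, and the Q module, where ubiquinone is reduced. Its membrane arm holds the proton pumps and is described here in a proximal and a distal part. The core of the membrane arm is encoded in mitochondrial DNA, and the nuclear NDUF genes encode the core of the peripheral arm and the accessory subunits around both arms. Assembly factors help to build the complex and are absent from the finished enzyme. NDUFA4, once counted as a complex I subunit, is now placed in complex IV, cytochrome c oxidase. SIRT5 is a mitochondrial enzyme that takes acidic acyl groups off lysine side chains, and proteins of the respiratory chain are among those that carry such groups.

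Short sequences were read for members on which the results turn. Promoters of 300 bases, from 250 before to 50 after the start site, were found in RefSeq (GRCh38.p14) for 39 of the 46 members. Each was searched on both strands for 5 motifs, and motifs may overlap. The letters GCGCATG, the core of the NRF1 motif, stood in 20.5% of the members' promoters and in 4.43% of all 35116 promoters. For AAGATGG, part of the YY1 motif, the shares were 17.9% and 5.84%, and for AAGGTCA, the ERR motif, 10.3% and 3.92%. CCGGAAG, the ETS motif, stood in 15.4% and 10.3%, and GGGCGG, the SP1 motif, in 56.4% and 45%. NRF1 and ERR proteins are known activators of respiratory chain genes. The stretches shown are NRF1 or YY1 matches in members described below, and no ERR match is shown. The lines below give 30 bases around a match, on the gene's own strand, with the motif in capitals.
NDUFA8, NRF1, chr9:122159765-122159794, minus strand: tgttgccggatGCGCATGcgcaggcgccgt
NDUFAF5, NRF1, chr20:13785013-13785042, plus strand: aagccgcgctgGCGCATGcgcacaaaaagc
NDUFA6, NRF1, chr22:42090919-42090948, minus strand: ctgtagatgagCATGCGCagcacccaccgt
NDUFA6, YY1, chr22:42090729-42090758, minus strand: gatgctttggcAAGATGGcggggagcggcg
NDUFA3, YY1, chr19:54102865-54102894, plus strand: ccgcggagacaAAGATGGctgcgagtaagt
NDUFA8 and NDUFAF5 carry the NRF1 letters across the start site, and their RNAs moved in opposite directions, as described below. The promoter of NDUFS8 held none of the 5 motifs, and those of NDUFA2, NDUFB11 and NDUFV3 held only the SP1 letters.

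A hairpin can also lower other RNAs that match the start of its guide strand, so 3′ UTRs were searched for 7-letter words. Over 10042 genes outside the family, carriers of GAAGAGC stood furthest below the rest in the control arm, carriers of AACCAGA in KD1 and carriers of CAGCTCC in KD2, by a mean change weighted for the number of carriers. These words were picked on the same libraries, the hairpin sequences were not used here, and the longest annotated UTR (GENCODE 44, GRCh38) stood for each gene. GAAGAGC stood in the UTR of 6 of 46 members (13%, against 17% of the other genes), AACCAGA in 6 (13%, against 17.4%) and CAGCTCC in 5 (10.9%, against 22.3%). Windows of 30 bases, with the word in capitals, follow for 3 members described below.
NDUFS1, chr2:206117707-206117736, minus strand: agcctgaaattCAGCTCCaacatctattaa
NDUFA2, chr5:140645608-140645637, minus strand: gctgatcaggtAACCAGAgccctggagaac
NDUFAF5, chr20:13817603-13817632, plus strand: tttagaatttaGAAGAGCatgtatctttat
NDUFA4, NDUFB11, NDUFA8, NDUFA6, NDUFAF8 and NDUFAF3 held none of the words. Among the members measured well enough, KD2 minus the mean of the other arms had a median of -0.09 (log2) for carriers of CAGCTCC and 0.01 for the others, and outside the family these medians were -0.15 and -0.03. For AACCAGA in KD1 the members' medians were 0.08 and 0.12, and those outside the family -0.03 and 0.10. For GAAGAGC in the controls they were -0.16 and -0.06, and -0.07 and 0.03. The part of these words in the changes was not tested.

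SIRT5 itself was reduced in all knockdown libraries. Its RNA in KD1 was 8.44% of the control mean in A2058, 3.89% in A375 and 7.01% in SKMEL2, and in KD2 it was 20%, 12.4% and 20%. Reads assigned to genes, recovered from the deposited values, numbered 7.10 to 54.5 M (M, 1e+06 reads) per library, and A375 had the least depth, at 7.10 to 23.9 M. Of 8 melanocyte markers, 8 passed the filter on low values in A2058 and SKMEL2 and 4 in A375, where MLANA, TYR, TYRP1 and DCT did not. Their summed FPKM was 884 to 910 in the A2058 controls and 660 to 803 after knockdown, 211 to 231 and 248 to 406 in A375, and 1742 to 1946 and 776 to 1075 in SKMEL2. SOX10, at 188 FPKM in the controls and 250 after knockdown, made up most of the A375 sum. MITF was called lower in each arm of each line, and stood at 46.3% of the control mean over both arms in A375. With both hairpins, PMEL and S100B were called higher there. Of 6 markers of other cell types analysed here, only CD14 and CDH1 passed, in SKMEL2. CDH1 was at 0 in every A375 control, and PTPRC, a marker of leukocytes, averaged at most 0.125 FPKM in any arm. The summed FPKM of these 6 was 0.354 to 0.623 in the A2058 controls and 0.948 to 1.75 after knockdown, 0.368 to 0.593 and 0.601 to 0.815 in A375, and 6.94 to 7.84 and 7.43 to 13.3 in SKMEL2. In SKMEL2 CDH1 went from 3.17 FPKM in the controls to 0.641 after knockdown, and CD14 from 3.58 to 8.71. The part of these shifts in the results was not tested.

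Levels are given as the deposited FPKM, fragments per kilobase of exon scaled by a factor for each library, so they compare genes per length. This factor, recovered from the values, did not follow the total of reads. It was 0.2423 at 7.10 M reads in A375 KD2 replicate 1 and 0.3236 at 7.28 M in A375 control replicate 2. No fit scaled by total reads was run, so the part of this scaling in the A375 changes was not tested. The highest members, by the mean of the control levels of the 3 lines, were NDUFS5 at 178 FPKM, NDUFA1 at 161 and NDUFB7 at 149. These are small accessory subunits, of the proximal membrane arm for the first pair and of the distal arm for NDUFB7. The lowest were NDUFV2 at 0.627, NDUFA7 at 0.781 and NDUFA9 at 1.71 FPKM. NDUFV2 encodes a core iron-sulfur subunit of the N module, and NDUFA7 and NDUFA9 encode accessory subunits of the Q module. In GENCODE 44, 28.4% of the exonic bases of NDUFV2 and 32.5% of those of NDUFA7 are shared with another gene, and the exons of NDUFA9 add up to 10391 bases. Reads in shared exons can be lost or misassigned, so these low levels are uncertain as levels of the RNA. Among other members named below, 51.4% of the exonic bases are shared in NDUFS7, 48.5% in NDUFB8 and 35.9% in NDUFB2. Assembly factors ranged from NDUFAF5 at 1.89 to NDUFAF3 at 37.3 FPKM.

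The first question was which members answered to SIRT5 loss in the same way in each line. A member was called when limma's adjusted p for the mean of KD1 and KD2 against control was under 0.05, and its change is given as a difference of log2(FPKM + 0.5) with its standard error. The members called higher in each of the 3 lines were NDUFA2, NDUFA6, NDUFA8, NDUFB11 and NDUFS8, 11.4% of the 44 members fitted in every line, against 10.7% of all genes fitted in every line. The members called lower were NDUFAF5 and NDUFV3, or 4.55% against 10.5% of all genes. The share of higher members was thus near the background. With the trend on gene length and GC content removed from each library, 4 members were higher in each line and 2 lower, against 13.6% and 13.1% of all genes, and NDUFA2, NDUFA8, NDUFS8 and NDUFV3 were called alike with and without this removal. In the fit of all 27 libraries 3 members were called alike in each line, NDUFA2, NDUFAF5 and NDUFV3, and in the authors' deposited tables NDUFA2 alone. Quantile normalization gave 3 higher, NDUFA2, NDUFA6 and NDUFB11, against 10.4% of all genes. It gave 5 lower, NDUFA4, NDUFAB1, NDUFAF5, NDUFB6 and NDUFB10, against 12.5%. NDUFA2 and NDUFB11 were called higher in all 6 comparisons of an arm with its control. The KD1 and KD2 comparisons of a line share its control libraries. In these bulk samples, less RNA per cell and fewer cells that hold the RNA cannot be told apart.

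NDUFA2 encodes an accessory subunit of the N module with a thioredoxin-like fold. In A2058 its FPKM was 17.8, 16.3 and 19.1 in the controls, 31.2, 30.4 and 31.6 in KD1 and 24.8, 22.4 and 24.0 in KD2. In A375 the controls stood at 30.9, 26.0 and 33.1, KD1 at 52.3, 46.9 and 70.6 and KD2 at 83.7, 76.5 and 59.0. In SKMEL2 the controls stood at 32.2, 34.7 and 34.5, KD1 at 45.2, 40.1 and 40.9 and KD2 at 45.4, 41.9 and 42.6. Every knockdown library of each line lay above every control library of that line. In A2058, A375 and SKMEL2 in turn, NDUFA2 changed by 0.60 ± 0.05 (adjusted p = 2.4e-06), 1.08 ± 0.16 (adjusted p = 0.00061) and 0.33 ± 0.05 (adjusted p = 0.00016).

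NDUFB11, an X-linked gene for an accessory subunit of the distal membrane arm, separated in the same manner. In A2058 its FPKM was 49.2, 42.1 and 47.7 in the controls, 85.6, 81.7 and 82.8 in KD1 and 71.0, 66.0 and 67.6 in KD2. In A375 the controls stood at 77.3, 74.2 and 86.9, KD1 at 128, 113 and 148 and KD2 at 201, 158 and 113. In SKMEL2 the step was small, from 45.0, 42.8 and 41.7 to 49.4, 47.0 and 47.1 in KD1 and 48.2, 45.8 and 47.3 in KD2. Control and knockdown libraries did not overlap in any line. The changes of NDUFB11 were 0.70 ± 0.05 (adjusted p = 5.6e-07), 0.82 ± 0.17 (adjusted p = 0.0038) and 0.14 ± 0.03 (adjusted p = 0.0054) in A2058, A375 and SKMEL2. The SKMEL2 value of NDUFB11 was 0.11 in the authors' deposited table (adjusted p = 0.25) and 0.03 with the length and GC trend removed (adjusted p = 0.47).

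NDUFA8, an accessory subunit on the intermembrane-space side of the membrane arm, rose most in SKMEL2 among the members called there with both hairpins. Its SKMEL2 controls were at 70.9, 73.8 and 69.1 FPKM, KD1 at 104, 95.7 and 101 and KD2 at 84.3, 81.7 and 86.8, with no overlap. The change of NDUFA8 was 0.36 ± 0.04 in SKMEL2 (adjusted p = 1.8e-05), 0.21 ± 0.05 in A2058 (adjusted p = 0.0049) and 0.64 ± 0.16 in A375 (adjusted p = 0.0099). Without A375 control replicate 2 its A375 value was 0.51 (adjusted p = 0.059), and in the authors' deposited table its A2058 value had an adjusted p of 0.21. In A375, 1 KD2 library, at 71.6 FPKM, lay among the controls of 52.3 to 74.4.

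NDUFA6 and NDUFS8 were called in each line with the mean of both arms, yet in A2058 and SKMEL2 only their KD1 arm passed. NDUFA6, a Q module subunit that binds the acyl carrier protein NDUFAB1, averaged 28.7 ± 1.67 FPKM (SD, n = 3) in control A2058 cells, 47.2 ± 3.39 with KD1 and 28.4 ± 3.02 with KD2. In A2058 its KD2 change was -0.02 (adjusted p = 0.86), and in SKMEL2 it was 0.04 (adjusted p = 0.42). NDUFS8, a core iron-sulfur subunit of the Q module, had KD2 changes of 0.03 (adjusted p = 0.53) in A2058 and 0.11 (adjusted p = 0.11) in SKMEL2. With the length and GC trend removed, the SKMEL2 change of NDUFA6 over both arms was 0.07 (adjusted p = 0.089). The calls of NDUFS8 were lost without A2058 control replicate 1 or 3 (adjusted p = 0.052 and 0.058) and, in SKMEL2, without control replicate 1 (adjusted p = 0.053).

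NDUFAF5 and NDUFV3 were the members called lower in each line. NDUFAF5, which hydroxylates an arginine of the core subunit NDUFS7 during assembly, had A2058 control values of 2.36, 2.52 and 2.54 FPKM, KD1 values of 1.20, 1.25 and 1.35 and KD2 values of 1.64, 1.86 and 1.55. In A375 the controls were at 2.10, 1.96 and 1.87, KD1 at 0.998, 0.881 and 0.936 and KD2 at 1.38, 1.86 and 1.72. In SKMEL2 the controls were at 1.24, 1.30 and 1.16, KD1 at 0.811, 0.713 and 0.843 and KD2 at 0.839, 0.735 and 0.901. All knockdown libraries lay below all control libraries, in A375 at 1.86 against 1.87 FPKM for the nearest pair. The A375 KD2 arm did not pass alone (change -0.21, adjusted p = 0.25). NDUFAF5 changed by -0.60 ± 0.07 (adjusted p = 3.7e-05), -0.50 ± 0.12 (adjusted p = 0.0083) and -0.41 ± 0.08 (adjusted p = 0.0012) in A2058, A375 and SKMEL2. The values of NDUFAF5 rest on 58 to 822 reads per library, and the pseudocount shrinks the change of so low a gene. The A375 change of NDUFAF5 had an adjusted p of 0.12 in the authors' deposited table, and it was -0.16 (adjusted p = 0.39) with the length and GC trend removed.

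NDUFV3, an accessory subunit of the N module, changed by -0.47 ± 0.06 (adjusted p = 4.5e-05), -0.32 ± 0.11 (adjusted p = 0.038) and -0.36 ± 0.04 (adjusted p = 2.4e-05) in the same order. Its FPKM fell from 6.06 ± 0.254 in the SKMEL2 controls to 3.90 ± 0.0925 in KD1, and to 5.42 ± 0.0283 in KD2 (SD, n = 3 each). In A375 the KD2 arm of NDUFV3 did not pass alone (change -0.19, adjusted p = 0.24). The A375 call over both arms was lost in 7 of the 9 fits that leave out a library, all but those without KD1 replicate 3 or KD2 replicate 3 (adjusted p = 0.052 to 0.16). It was also lost without KD2 replicates 1 and 2 (-0.35, adjusted p = 0.054) and in the authors' deposited table (adjusted p = 0.14).

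**Figure D1:**
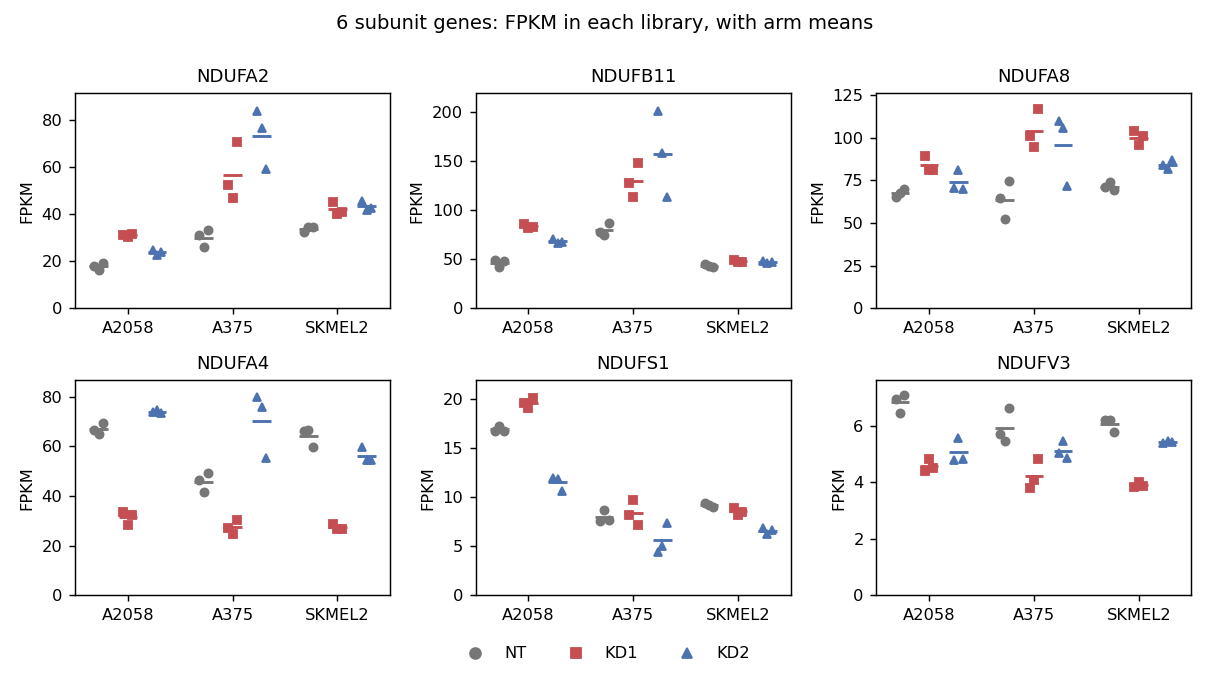
FPKM of NDUFA2, NDUFB11, NDUFA8, NDUFA4, NDUFS1 and NDUFV3 in each of the 27 libraries, with 1 point per library, a bar at the mean of the 3 libraries of an arm, and the lines along the x axis. NDUFA2 and NDUFB11 are above their controls in both arms of every line, and NDUFA4 is lowest in KD1, at 28.4 to 33.4 in A2058, 24.6 to 30.2 in A375 and 26.7 to 28.7 in SKMEL2.

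In A375 most of the members that passed were higher after knockdown. Of 45 members fitted, 19 were called higher (42.2%, against 26.2% of all 12629 genes fitted) and 2 lower (4.44%, against 21.7%). The median change was 0.25 over the members and 0.02 over all genes. Called higher with both hairpins were 13 members (28.9%, against 12.9% of all genes), and none was called lower with both, against 9.38% of all genes. All 13 are subunits, from NDUFA2 and NDUFB11 to the core Q module subunits NDUFS3 and NDUFS8.

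By module, 6 of 8 Q module genes, 7 of 12 distal and 3 of 9 proximal membrane arm genes were higher in A375 and none of them lower. Of all genes fitted in A375, 26.2% were higher and 21.7% lower. In the N module 2 of 7 were higher, NDUFA2 and NDUFV1, and NDUFV3 was lower. NDUFA3, a small accessory subunit of the proximal membrane arm, was at 10.6, 10.4 and 11.3 FPKM in the A375 controls, 19.1, 14.9 and 23.0 in KD1 and 24.8, 21.0 and 16.0 in KD2, without overlap between the knockdown and control libraries. Its change was 0.83 ± 0.16 (adjusted p = 0.0026), while in SKMEL2 it was 0.05 ± 0.04 (adjusted p = 0.32). In all, 15 members lay above the controls in every A375 knockdown library and 4 lay below, against 17.1% and 13.3% of all genes.

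The A375 libraries differ in more than the hairpin. In KD2 replicates 1 and 2 the values of short genes were high against those of long genes, with a slope of -0.148 and -0.141 (log2 change against the control mean per doubling of length). In the other 7 A375 libraries the slope lay between -0.062 and 0.036. The members are short, with a median exon length of 2282 bases for subunits and 2167 for assembly factors, against 4162 over all genes fitted. Without those 2 libraries, 14 members were higher (31.1%, against 22.9% of all genes) and 1 was lower, and with the trend on length and GC content removed from each library, 20 were higher and 3 lower, against 29.7% and 27.3% of all genes. Without A375 control replicate 2, which per the labels has a truncated raw file and whose total was 7.28 M reads, the number called fell from 21 to 11, of which 10 were higher, against 18.2% of all genes higher and 13.8% lower.

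In A2058 the members split. Of 45 fitted, 14 were called higher and 17 lower, or 31.1% and 37.8%, against 34.6% and 34.7% of all 12797 genes, with a median change of -0.05 against -0.01. With both hairpins 8 were higher and 8 lower, 17.8% each, near the 19.3% and 17.7% of all genes. The 8 higher were NDUFA2, NDUFA3, NDUFA11, NDUFB3, NDUFB9, NDUFB11, NDUFS4 and NDUFAF7, and the 8 lower were NDUFAB1, NDUFB2, NDUFB6, NDUFV3, NDUFAF2, NDUFAF3, NDUFAF4 and NDUFAF5. NDUFA11, which sits at the junction of the arms, rose from 9.22, 8.26 and 9.87 FPKM to 12.1, 11.8 and 12.3 in KD1 and 13.4, 14 and 13.1 in KD2. Its change of 0.47 ± 0.05 (adjusted p = 2e-05) came without overlap between libraries. Every knockdown library was above the A2058 controls for 6 members and below them for 7, against 20.3% and 19.3% of all genes.

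In SKMEL2 more members were lower than higher. Of 44 fitted, 10 were higher (22.7%, against 32.9% of all 13899 genes) and 18 lower (40.9%, against 32.4%), with a median change of -0.07 against 0.00. With the length and GC trend removed, 6 were higher and 22 lower, against 32.7% and 34.1%. With both hairpins 4 were higher (9.09%, against 17.5%), namely NDUFA2, NDUFA8, NDUFB11 and NDUFS4, and 11 lower (25%, against 15.9%). NDUFS4, an accessory subunit that helps to hold the N module in place, was at 23.7, 22.4 and 22.1 FPKM in the controls, 31.9, 32.4 and 32.7 in KD1 and 25.2, 23.4 and 24.8 in KD2. The KD1 libraries were above all others, and KD2 overlapped the controls. The change over both arms was 0.30 ± 0.03 (adjusted p = 4.2e-05), and the authors' deposited table gave NDUFS4 an adjusted p of 0.16.

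NDUFS5, an intermembrane-space subunit with the highest FPKM of the members, was at 157, 154 and 151 FPKM in the SKMEL2 controls, 140, 131 and 133 in KD1 and 103, 99.2 and 102 in KD2. The 3 arms did not overlap. Its change was -0.40 ± 0.03 (adjusted p = 3.2e-06), and KD2 was below KD1 by 0.41 (adjusted p = 4.6e-06). In A2058 NDUFS5 was at 200, 204 and 219 FPKM in the controls, 214, 201 and 204 in KD1 and 139, 139 and 137 in KD2, so that only the KD2 arm stood apart. Every SKMEL2 knockdown library was above the controls for 4 members and below them for 11, against 19.1% and 18.0% of all genes.

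**Figure D2:**
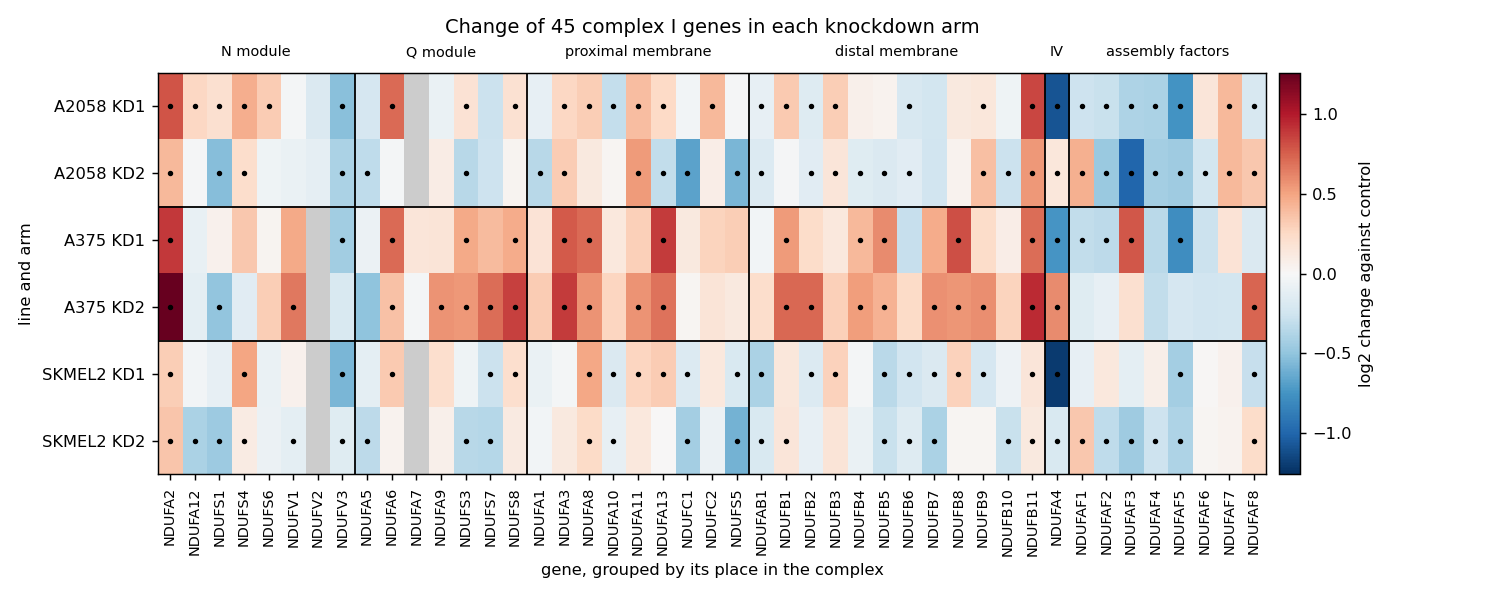
Change of 45 of the 46 genes in KD1 and KD2 against the control of the same line, as a difference of log2(FPKM + 0.5), with genes grouped by module along the x axis and line and arm along the y axis. Red is higher, blue lower, grey not fitted, and a dot marks an adjusted p under 0.05. The A375 rows are mostly red over the subunits, and NDUFA4 is dark blue in the KD1 rows, at -1.09 in A2058, -0.74 in A375 and -1.21 in SKMEL2.

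The hairpins gave different values for many members, and NDUFA4 differed most. In A2058 NDUFA4 was at 66.6, 65.1 and 69.5 FPKM in the controls, 33.4, 28.4 and 32.4 in KD1 and 74.0, 74.6 and 73.5 in KD2. In A375 the controls were at 46.4, 41.6 and 49.4, KD1 at 27.1, 24.6 and 30.2 and KD2 at 79.8, 76.1 and 55.4. In SKMEL2 the controls were at 66.2, 66.7 and 59.6, KD1 at 28.7, 26.7 and 26.7 and KD2 at 59.7, 54.5 and 54.6. In every line the KD1 libraries were below both other arms without overlap, at 46.8%, 59.6% and 42.6% of the control mean. The KD2 arm was above its controls in A2058 (change 0.14, adjusted p = 0.046) and A375 (0.60, adjusted p = 0.012), and lower in SKMEL2 (-0.19, adjusted p = 0.014). In line order KD2 exceeded KD1 by 1.23 ± 0.06 (adjusted p = 1.9e-08), 1.34 ± 0.15 (adjusted p = 0.00012) and 1.03 ± 0.06 (adjusted p = 2.6e-07). The mean over both arms, which the authors' deposited tables also use, therefore stands for neither arm of this gene.

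NDUFAF8, which stabilises NDUFAF5, followed the same order between hairpins at a smaller size. KD2 exceeded KD1 by 0.55 ± 0.08 (adjusted p = 0.00015), 0.91 ± 0.15 (adjusted p = 0.0012) and 0.52 ± 0.08 (adjusted p = 0.00021) in A2058, A375 and SKMEL2. Its A375 values were 25.0, 24.5 and 33.3 FPKM in the controls, 23.3, 22.4 and 26.8 in KD1 and 49.4, 49.1 and 39.3 in KD2, with KD2 above all other libraries. NDUFAF1, a member of the assembly complex of the proximal membrane arm, likewise had more RNA with KD2, by 0.72 over KD1 in A2058 (adjusted p = 0.0001) and by 0.44 in SKMEL2 (adjusted p = 0.00014).

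NDUFS1, the largest core subunit, which carries iron-sulfur clusters of the N module, went the other way. In A2058 it was at 16.8, 17.3 and 16.8 FPKM in the controls, 19.6, 19.1 and 20.1 in KD1 and 12, 11.9 and 10.6 in KD2, with no overlap of arms. In SKMEL2 the controls were at 9.44, 9.24 and 9.0, KD1 at 8.93, 8.19 and 8.52 and KD2 at 6.87, 6.26 and 6.65. KD2 minus KD1 was -0.75 (adjusted p = 4.1e-07), -0.55 (adjusted p = 0.037) and -0.35 (adjusted p = 0.00011) in A2058, A375 and SKMEL2. The A375 difference of NDUFS1 became -0.16 (adjusted p = 0.54) without KD2 replicates 1 and 2. NDUFS1 has the longest exon length behind its FPKM among the members, 12174 bases. It carries the word CAGCTCC shown above, in a UTR of 9371 bases. Among the carriers measured well enough, NDUFS1 stood at -0.53 in KD2 against the mean of the other arms (log2). NDUFA12 stood at -0.20, NDUFB4 at 0.03 and NDUFA11 at 0.25. The part of this word in the change of NDUFS1 was not tested.

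Over the members, 24 of 45 were lower and 7 higher in KD2 than in KD1 in A2058, or 53.3% and 15.6%, against 40.7% and 31.6% of all genes. In SKMEL2 19 of 44 were lower and 7 higher, 43.2% and 15.9%, against 35.2% and 33.3%. In A375 2 of 45 were lower and 5 higher, 4.44% and 11.1%, against 21.2% and 16.9%. NDUFA6 was lower in KD2 by 0.73 in A2058 (adjusted p = 1.3e-05), and NDUFAF2, which binds a late assembly intermediate, by 0.44 in SKMEL2 (adjusted p = 0.00069). Called in opposite directions by the hairpins were 7 members in A2058 (15.6%, against 15.5% of all genes), 1 in A375 (2.22%, against 3.35%) and 2 in SKMEL2 (4.55%, against 12.4%). The member in A375 was NDUFA4, and NDUFAF8 was among those in SKMEL2.

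Subunits and assembly factors were then set side by side. In A375 the median change was 0.41 over 37 subunits and -0.22 over 8 assembly factors, with 18 subunits higher and 1 lower, and 1 assembly factor higher, NDUFAF3, and 1 lower. In A2058 the medians were -0.05 and -0.21, with 13 subunits higher and 13 lower, and 1 assembly factor higher and 4 lower. In SKMEL2 they were -0.07 and -0.06, with 10 subunits higher and 16 lower and, of the assembly factors, 2 lower. Of all genes, 26.2% were higher and 21.7% lower in A375, 34.6% and 34.7% in A2058, and 32.9% and 32.4% in SKMEL2. Over the lines 18 of 38 subunits were higher (47.4%) and 7 lower (18.4%), while 1 of 8 assembly factors was higher and 4 were lower (50%). For all 46 members these shares were 41.3% and 23.9%, against 32.0% higher and 32.0% lower over all 16162 genes.

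The distance between the levels was also read in each library, as the median log2(FPKM + 0.5) of the subunits minus that of the assembly factors. In A2058 it was 1.03 ± 0.16 in the controls (SD, n = 3), 1.55 ± 0.14 in KD1 and 0.78 ± 0.17 in KD2, and KD1, at 1.43 to 1.70, lay clear of the controls at 0.84 to 1.12, while KD2, at 0.60 to 0.95, overlapped them. The medians of the changes in A2058 were 0.12 over subunits and -0.27 over assembly factors in KD1, and -0.08 and -0.33 in KD2, so that for KD2 the difference of median changes and the shift in the distance of levels had opposite signs. In A375 it was 0.99 ± 0.04 in the controls, 1.46 ± 0.17 in KD1 and 1.56 ± 0.25 in KD2, and both knockdown arms, at 1.28 and above, lay clear of the controls, whose highest was 1.02. In SKMEL2 it was 1.38 ± 0.02, 1.25 ± 0.11 and 1.03 ± 0.03, so that both arms lay below the controls, at 1.36 to 1.41. Summed FPKM gave another picture in A2058 and SKMEL2. In A2058 the sum over subunits was 14.7 times that over assembly factors in control libraries, 18.8 times with KD1 and 16.2 times with KD2. In SKMEL2 it was 13.0 ± 0.630, 13.3 ± 0.349 and 13.5 ± 0.169. The SKMEL2 libraries of KD1, at 13.0 to 13.7, and of KD2, at 13.3 to 13.6, lay within the control range of 12.6 to 13.7. In A375 the ratio was 13.3, 15.0 and 15.8, and its summed subunit FPKM was 1471 ± 157, 1864 ± 243 and 2056 ± 309. The FPKM summed over all genes rose there too. It was 2.767e+05 to 3.09e+05 in the A375 controls, 3.317e+05 to 3.91e+05 in KD1 and 3.079e+05 to 4.18e+05 in KD2.

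**Figure D3:**
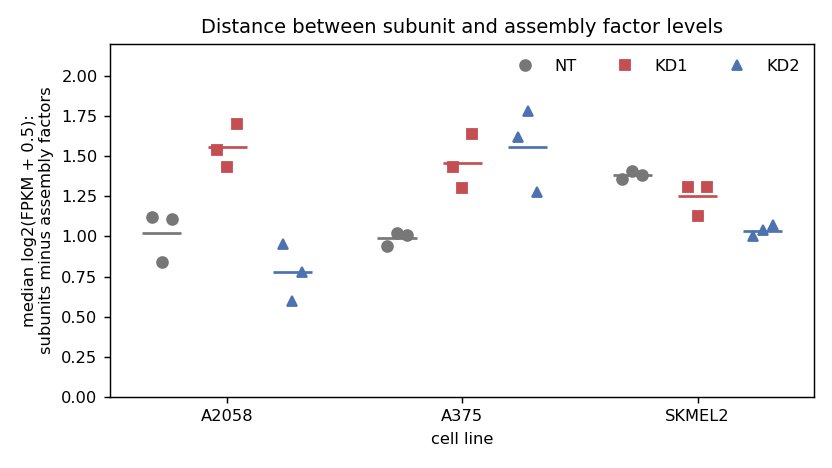
Distance between subunit and assembly factor levels in each library, as the difference of the median log2(FPKM + 0.5), by line along the x axis, with 1 point per library and a bar at the mean of 3. The A375 knockdown libraries, at 1.28 to 1.78, lie above the A375 controls at 0.94 to 1.02, the A2058 KD1 libraries lie above their controls while those of KD2 overlap them, and the SKMEL2 arms lie below theirs.

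The assembly factors did not move as a block. NDUFAF3 and NDUFAF4 work together on the Q module, and both fell in A2058. NDUFAF3 was at 32.0, 31.4 and 35.0 FPKM in the A2058 controls, 23.2, 26.4 and 25.3 in KD1 and 17.0, 14.7 and 16.7 in KD2. In A375 the controls were at 33.3, 29.6 and 41.0, KD1 at 57.6, 49.7 and 72.2 and KD2 at 48.4, 42.2 and 30.3. In SKMEL2 the controls were at 41.6, 47.5 and 44.5, KD1 at 42.4, 39.2 and 41.0 and KD2 at 30.8, 33.4 and 33.3. The arms of A2058 did not overlap, KD1 was above the controls in A375, and KD2 was below them in SKMEL2. NDUFAF3 changed by -0.70 ± 0.06 (adjusted p = 2.4e-06), 0.49 ± 0.18 (adjusted p = 0.042) and -0.28 ± 0.05 (adjusted p = 0.00051) in A2058, A375 and SKMEL2. The A375 call of NDUFAF3 was lost without KD2 replicates 1 and 2 (0.30, adjusted p = 0.16), with the length and GC trend removed (0.19, adjusted p = 0.053) and in the authors' deposited table (adjusted p = 0.13). It was also lost in 6 of the 9 fits that leave out a library, all but those without control replicate 3, KD1 replicate 2 or KD2 replicate 3. KD2 minus KD1 was -0.61 (adjusted p = 1.5e-05), -0.57 (adjusted p = 0.047) and -0.33 (adjusted p = 0.00046) in that order. The A375 difference of NDUFAF3 between hairpins lost its call in 6 of the 9 fits that leave out a library.

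NDUFAF4 changed by -0.41 ± 0.08 in A2058 (adjusted p = 0.00068), while its A375 value, -0.32 (adjusted p = 0.055), and its SKMEL2 value, -0.09 (adjusted p = 0.19), did not pass. NDUFAF2 fell in A2058 by 0.37 (adjusted p = 0.00062), with values of -0.21 (adjusted p = 0.12) and -0.10 (adjusted p = 0.24) in A375 and SKMEL2. NDUFAF7, a mitochondrial methyltransferase, rose in A2058 by 0.41 ± 0.09 (adjusted p = 0.0016), from 5.48 to 5.87 FPKM in the controls to 6.47 to 9.30 after knockdown. It was at 99.6% of control in A375 and 104% in SKMEL2. NDUFAF6, which acts early on the mitochondrially encoded part of the proximal arm, stood at 97.8%, 80.5% and 102% of control in A2058, A375 and SKMEL2 and passed in none of them. NDUFAF1 and NDUFAF8 did not pass in any line when the arms were averaged.

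**Figure D4:**
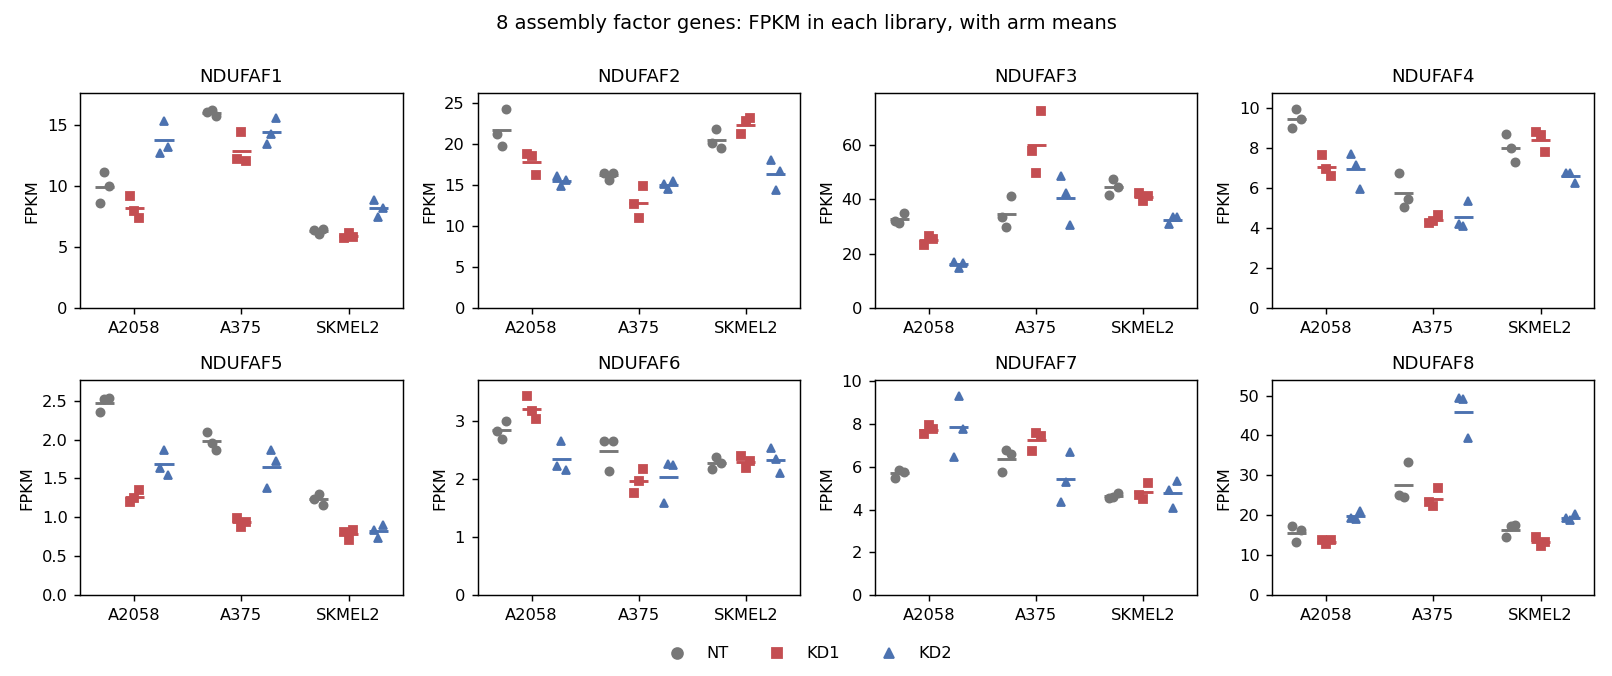
FPKM of the 8 assembly factor genes in each of the 27 libraries, with 1 point per library, a bar at the mean of 3 and lines along the x axis. NDUFAF5 is below its controls in every arm, NDUFAF3 is below its controls in A2058 and, in A375, above them with KD1, and NDUFAF8 is higher in KD2 than in KD1 in each line, at 39.3 to 49.4 against 22.4 to 26.8 in A375.

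Whether the knockdown effect differed between lines was tested in a fit of all 27 libraries. It differed for 28 of 46 members (60.9%), against 61.1% of all genes. Among the smallest adjusted p-values were those of NDUFB5, NDUFAF3, NDUFS5 and NDUFS7. NDUFB5, an accessory subunit of the distal membrane arm, was at 10.9, 10.5 and 11.3 FPKM in the A375 controls, 16.1, 15.8 and 18.3 in KD1 and 13.6, 16.8 and 14.4 in KD2. In SKMEL2 the controls were at 20.3, 19.1 and 18.2, KD1 at 16.0, 14.5 and 14.6 and KD2 at 16.7, 15.2 and 15.3. Knockdown libraries were all above the controls in A375 and all below them in SKMEL2. In A2058, A375 and SKMEL2 NDUFB5 changed by -0.07 ± 0.04 (adjusted p = 0.17), 0.52 ± 0.10 (adjusted p = 0.0025) and -0.31 ± 0.05 (adjusted p = 0.00037), and the test of the difference gave an adjusted p of 4.7e-07. NDUFS7, a core iron-sulfur subunit next to the ubiquinone site and the substrate of NDUFAF5, changed by 0.55 in A375 (adjusted p = 0.013), -0.31 in SKMEL2 (adjusted p = 0.00016) and -0.26 in A2058 (adjusted p = 0.058). The exons behind their FPKM, 5871 and 7456 bases, are longer than the median over all genes. With the length and GC trend removed, the A375 changes were 0.85 for NDUFB5 (adjusted p = 0.0024) and 0.38 for NDUFS7 (adjusted p = 0.0043). The A375 call of NDUFS7 was lost without control replicate 1 (adjusted p = 0.054) or 2 (adjusted p = 0.07).

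The control levels of the members themselves differed between the lines. Against A2058, 14 of 46 members were higher in A375 (30.4%, against 35.6% of all genes) and 18 lower (39.1%, against 35.1%). In SKMEL2 against A2058, 8 were higher (17.4%, against 37.2%) and 19 lower (41.3%, against 32.0%). In SKMEL2 against A375, 12 were higher (26.1%, against 38.8%) and 19 lower (41.3%, against 34.2%). With the length and GC trend removed, SKMEL2 had 4 higher and 29 lower than A2058, against 37.2% and 36.7% of all genes, and 8 higher and 24 lower than A375, against 36.7% and 38%. NDUFA6 and NDUFS6 are named here after their values were seen. NDUFA6 was at 28.7 ± 1.67 FPKM in A2058, 19.6 ± 1.40 in A375 and 88.3 ± 2.84 in SKMEL2 (SD, n = 3), and SKMEL2 exceeded A375 by 2.14 on the log2 scale (adjusted p = 1.1e-15). NDUFS6, a zinc-binding accessory subunit of the N module, ran the other way, at 97.2 ± 7.30, 76.2 ± 10.6 and 28.6 ± 1.57 FPKM. Of the 7 nuclear core subunits, 5 were lower in SKMEL2 than in A2058 and 1, NDUFS7, was higher.

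The 7 core subunits encoded in mitochondrial DNA moved with the line as well. In A2058 6 of 7 were higher, against 34.6% of all genes, with a median change of 0.36. In A375 2 of 7 were higher, against 26.2%, MT-ND5 (0.43, adjusted p = 0.046) and MT-ND6 (0.76, adjusted p = 0.0027). By arm, 5 of 7 were higher in KD1 of A375, against 3362 of all 12629 genes, and 0 of 7 in KD2, against 2848. In SKMEL2 6 of 7 were lower, against 32.4%, with a median of -0.21. There 3 of 7 were lower in KD1, against 4565 of all 13899 genes, and 5 of 7 in KD2, against 4319. Only MT-ND3 was called lower with both hairpins in SKMEL2, or 14.3%, against 15.9% of all genes. MT-ND6 averaged 1401 ± 55.0 FPKM in the A375 controls, 2941 ± 485 in KD1 and 1949 ± 276 in KD2. Strand use in counting is not stated, and MT-ND6 lies on the strand opposite to the other MT-ND genes. In A375 the 4 of 7 called between the hairpins were all lower in KD2 than in KD1, against 21.2% of all genes lower. TFAM, which packages mitochondrial DNA and starts its transcription, was lower in all 6 arm comparisons, falling from 10.3 ± 0.200 FPKM to 3.81 ± 0.832 in KD1 and 4.40 ± 1.55 in KD2 of A375. Of 10 listed regulators of mitochondrial gene expression, 5 were higher and 5 lower over the lines, against 32.0% of all genes in each direction.

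Of 14 assembly genes with other names, 6 were higher (42.9%) and 5 lower (35.7%) over the lines, against 32.0% of all genes in each direction, with a median of 0.09. CHCHD4, which drives oxidative import into the intermembrane space, was lower in all 6 arm comparisons. In A2058 its FPKM went from 16.1 ± 0.789 to 6.94 ± 0.223 with KD1 and 7.99 ± 1.23 with KD2, and its change over the lines was -0.86 (adjusted p = 5.3e-11). TMEM126B, which works with NDUFAF1 on the membrane arm, changed by -0.41 (adjusted p = 5.1e-05), and TMEM70, another membrane arm assembly gene, by -0.37 (adjusted p = 2.8e-08). TMEM70 stood at 85.4% of control in KD1 and 54.4% in KD2 of A2058, and at 51.3% and 88.4% in A375. In SKMEL2 it stood at 95.3% and 96.7%. TIMMDC1 and ACAD9, also membrane arm assembly genes and named after their values were seen, were called higher in each line, by 0.36 (adjusted p = 3.7e-08) and 0.30 (adjusted p = 3.1e-06) over the lines.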

How the data were processed

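Per the labels' protocols, cells were transduced, selected with puromycin and lysed, and paired reads were sequenced. The submitters' processing notes name STAR 2.7.3a for alignment, Trimmomatic 0.39, quality reports by MultiQC 1.9 and FastQC 0.11.9, Subread 2.0.0 for counting, and GRCh38 with GENCODE release 34. The authors deposited FPKM values per gene and library. The authors also deposited tables of knockdown against control, made with DESeq2 1.28.1 per the submitters' processing notes, that hold a base mean (a normalised signal), the log2 fold change and its p-value, raw and adjusted. FPKM times the base mean over the row's mean gave whole reads for 100% of values within 0.05, and these reads served for depth and for limma-voom.

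Values were tested as log2(FPKM + 0.5) by limma 3.58.1 (R 4.3.3), its variance prior following the mean, and p-values were adjusted by Benjamini-Hochberg over all genes with FPKM of at least 1 in at least 3 libraries of the fit. A fold change on this scale understates changes of low genes. Each line was fitted alone with 3 arm means, and all 27 libraries together for effects over and between lines and for control levels. Positions come from GENCODE 44, which matched 99.6% of the gene identifiers. The fit was tested on simulated data with the same spread in every line, no length trend and the same change in both arms. That test therefore says nothing on the uneven A375 libraries or on differences between hairpins. Members and lists were chosen with earlier results of these data known. Members were named where called alike in each line, by the largest changes per line (3 each way with both hairpins, 2 each way between hairpins), by the 5 smallest p-values between lines and by level (3 at each end), with every assembly factor. Up to 3 genes per outside list were named, with more in the lists of melanocyte markers and of assembly genes with other names. The values of 1 member, included in every fit and count, are not reported here.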

Additional observations from a re-analysis of the deposited data

Results flagged for a closer look

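Among 20 named members, 60 groups of 6 knockdown libraries were searched for a library far from the rest. Chance flags about 1 in 20 groups of like libraries. Each group here held both hairpins, so a difference between the arms can hide such a library, and that rate need not hold. In 1 group such a library was found. NDUFV3 stood at 5.56 FPKM in A2058 KD2 replicate 2, against 4.40 to 4.81 in the other 5 A2058 knockdown libraries, still below every A2058 control.

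The knockdown effect differed between the 3 lines by limma's F-test for NDUFB5 (adjusted p = 4.7e-07), NDUFAF3 (adjusted p = 2.1e-05), NDUFS5 (adjusted p = 2.7e-05) and NDUFS7 (adjusted p = 0.00018). NDUFB5 had called changes of opposite sign in A375 and SKMEL2. So had NDUFAF3, but its A375 call (adjusted p = 0.042) was lost without KD2 replicates 1 and 2 (adjusted p = 0.16), with the length and GC trend removed (adjusted p = 0.053), in the authors' deposited table (adjusted p = 0.13) and in 6 of the 9 fits that leave out an A375 library. NDUFS5 was called lower in A2058 (-0.30) and SKMEL2 (-0.40), with 0.21 in A375 (adjusted p = 0.15).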

How the results depend on the processing

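Counts of members called, differences of median changes between subunits and assembly factors, and changes of named members were recomputed under other settings. These were pseudocounts of 0.1 and 1, other filters on low values, median centring, quantile normalization and no variance trend. Further settings were a replicate block, all 27 libraries in 1 fit, limma-voom on the recovered reads, the authors' deposited tables, and each library left out. Changes of genes outside the family, calls of single arms or with both hairpins, distances per library and ratios of sums were not recomputed in this way. Removing the length and GC trend and leaving out A375 KD2 replicates 1 and 2 were chosen after seeing the data. No named change reversed. Over the named changes, called changes within a line included, the call held in 747 recomputed values of full or reduced sets and 785 with a library left out, and was lost in 51 and 31. The authors' deposited tables account for 19 of the 51. There the lost calls were those of NDUFA4, NDUFA6, NDUFA8, NDUFAF2, NDUFS1, NDUFS4, NDUFS5 and NDUFS8 in A2058 (adjusted p = 0.054 to 0.81), NDUFAF3, NDUFAF5 and NDUFV3 in A375 (0.12 to 0.14), and NDUFA4, NDUFA6, NDUFA11, NDUFAF3, NDUFB11, NDUFS1, NDUFS4 and NDUFS8 in SKMEL2 (0.089 to 0.36). The fit of all libraries lost 8, namely NDUFA8, NDUFS1 and NDUFS8 in A2058 and NDUFA6, NDUFA11, NDUFAF3, NDUFB11 and NDUFS8 in SKMEL2. Removing the length and GC trend lost NDUFAF3 and NDUFAF5 in A375 and NDUFA6 and NDUFB11 in SKMEL2, and quantile normalization lost NDUFA8 and NDUFS8 in A2058. NDUFAF3 and NDUFV3 in A375, and NDUFAF3 and NDUFS1 between the A375 hairpins, were lost under several settings each. The causes were not tested. The 7 members called alike in each line became 3 in the fit of all libraries, 6 with the length and GC trend removed and 1 in the authors' tables, and 5 to 10 with a library left out. With quantile normalization 3 were higher and 5 lower in each line, against 5 higher and 2 lower in the main fit.

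The count between the A375 hairpins, 7, was the least stable. It was 4 with no filter, 12 with quantile normalization, 17 in the fit of all libraries and 20 with the length and GC trend removed, and 3 to 17 with a library left out. It was 4 without NT replicate 1 or KD2 replicate 2, 3 without KD1 replicate 1 and 17 without KD2 replicate 3. In the fit of all libraries, knockdown calls fell from 31 to 17 in A2058 and from 28 to 13 in SKMEL2, and calls between the SKMEL2 hairpins from 26 to 15. The authors' deposited tables called 9 in A2058, 11 in SKMEL2 and 15 over the lines, against 30 here. With a library left out, the A375 knockdown count of 21 ran from 11 to 28, and the count of 28 that differed between lines from 17 to 33, both lowest without A375 NT replicate 2. The subunit minus assembly factor difference of median changes in A375, 0.63, became 0.44 with quantile normalization, 0.37 with the length and GC trend removed, 0.45 without KD2 replicates 1 and 2, and 0.39 with the other assembly genes added, and 0.55 to 0.74 with a library left out. In SKMEL2, at 0.00, it ran from -0.12, without NT replicate 3, to -0.01.

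Replicate numbers did not pair the samples in A2058 and SKMEL2, where deviations of same-numbered libraries correlated at -0.07 to 0.06 and -0.06 to 0.06. In A375 the correlations ran from -0.62 to 0.43. There replicates 2 and 3 had 0.40 and 0.43 between NT and KD1, and -0.62 to -0.35 between KD2 and either. Pairing in A375 is thus not settled. With the replicate block, 4 members were called between the A375 hairpins, 17 between the SKMEL2 and A2058 controls, against 27, and 16 for knockdown in A375. Spread between replicates exceeded counting error: the chi-square of a pair, averaged over genes, was 5.04 to 49.2 in A375 and 3.42 to 8.87 in the other lines, so depth is not the only limit on precision.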
